A study of Mus musculus with 16 samples.

Results

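The mRNA of 10 interferon-inducible GTPase genes was followed in mouse liver after dosing with emodin. They are 5 guanylate-binding protein genes (Gbp2, Gbp3, Gbp6, Gbp7 and Gbp9) and 5 immunity-related GTPase genes (Igtp, Irgm1, Irgm2, Iigp1 and Ifi47). The genes were chosen by symbol, and all 10 were found among the 27446 entries of the deposited table. Each also passed the filter on low counts that left 14308 entries for testing, and the lowest estimated count of any of them in any liver was 74, for Gbp7. The study sequenced RNA of 16 livers of wild-type C57BL/6 mice, 8 given emodin and 8 given vehicle. Emodin, an anthraquinone found in rhubarb and related plants, was put into the stomach at 400 mg/kg for 3 weeks, suspended in 0.5% sodium carboxymethyl cellulose, and vehicle mice received that carrier without emodin. All mice had been acclimated for 7 days and livers were collected after the last dose. The labels number 8 libraries per group and do not say that each is a separate animal, so the p-values measure the spread between libraries, which are called livers here. By its title, the study asks about detoxification and inflammatory mechanisms in emodin liver toxicity.

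Gbp7, Gbp3 and Gbp2 lie in that order on the plus strand of chromosome 3 (mm10), at chr3:142530342-142550149, chr3:142560026-142573209 and chr3:142620602-142638008. Gbp9 and Gbp6 lie on the minus strand of chromosome 5, at chr5:105077630-105139539 and chr5:105270702-105293698. Irgm1 (chr11:48861968-48871683, minus strand), Ifi47 (chr11:49076587-49096974), Igtp (chr11:58199556-58207591) and Irgm2 (chr11:58199618-58222782) lie on chromosome 11, the last 3 on the plus strand, and Iigp1 lies on chromosome 18. All 10 are annotated as protein coding in GENCODE M21. The annotated exons of Igtp and Irgm2 share 162 bases on the same strand, and those of Gbp9 share 60 bases with Gbp4 and 60 with Gbp8. How the authors' counting treated reads shared by overlapping or closely similar genes is not given in the sources used here, so the split of reads within such a pair is uncertain.

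Guanylate-binding proteins (GBPs) and immunity-related GTPases (IRGs) are made by many mouse cells, hepatocytes among them, when interferon gamma reaches the cell. They gather on the vacuoles of intracellular parasites and bacteria and help to break them open. Among the IRGs, Irgm1, Irgm2 and Igtp are regulators that sit on the cell's own membranes and keep effector IRGs such as Iigp1 and Ifi47 inactive there. Interferon gamma signals act on gamma-activated sites (GAS) in promoters. Type I interferons act mainly on interferon-stimulated response elements (ISREs), bound by a complex that holds IRF9, and IRF1 also recognises this sequence.

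Promoter sequences are shown because most of the members' promoters at hand hold interferon-type motifs. A promoter of 300 bases (250 before and 50 after the transcription start, RefSeq, GRCm38.p6) was held for 7 of the 10 genes. Gbp6, Gbp9 and Iigp1 had none. Searched on both strands, the ISRE letters, taken as GAAA, any 2 bases and GAAA (TTTC, any 2 bases and TTTC on the other strand), occurred in 6 of the 7 and the GAS letters TTCNNNGAA, which read the same on both strands, in 3. The promoters of Gbp7, Igtp and Irgm2 held both, those of Gbp2, Gbp3 and Irgm1 the ISRE letters without the GAS letters, and that of Ifi47 neither. Over all 32851 RefSeq promoters of this length, 3.44% held the ISRE letters, 8.3% the GAS letters and 0.454% both. The 120 bases before the start of the 6 genes with a match are given 5′ to 3′ on the gene's strand, with every match in capitals.
Gbp2, chr3:142620543-142620662, plus strand: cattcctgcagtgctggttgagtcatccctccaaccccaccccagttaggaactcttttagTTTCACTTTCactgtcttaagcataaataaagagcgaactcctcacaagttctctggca
Gbp3, chr3:142559924-142560043, plus strand: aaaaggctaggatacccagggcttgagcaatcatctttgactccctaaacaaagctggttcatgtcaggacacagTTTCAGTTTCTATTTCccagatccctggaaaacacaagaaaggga
Gbp7, chr3:142530216-142530335, plus strand: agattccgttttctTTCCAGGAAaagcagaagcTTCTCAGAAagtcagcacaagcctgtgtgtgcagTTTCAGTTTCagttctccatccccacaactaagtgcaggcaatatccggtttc
Igtp, chr11:58199436-58199555, plus strand: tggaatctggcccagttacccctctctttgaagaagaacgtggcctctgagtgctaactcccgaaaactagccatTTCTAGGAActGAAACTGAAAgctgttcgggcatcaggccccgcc
Irgm1, chr11:48871421-48871540, minus strand: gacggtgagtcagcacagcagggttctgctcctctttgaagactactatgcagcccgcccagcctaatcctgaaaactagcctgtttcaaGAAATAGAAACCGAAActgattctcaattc
Irgm2, chr11:58214857-58214976, plus strand: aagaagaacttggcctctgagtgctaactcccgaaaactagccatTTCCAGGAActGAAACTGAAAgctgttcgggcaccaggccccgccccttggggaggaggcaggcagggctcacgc
In Gbp3 and Irgm1 the capitals run over 2 overlapping ISRE matches each. Gbp3 has a second RefSeq start, whose promoter held no match. In Igtp and Irgm2 the GAS letters are followed by the ISRE letters at the same distance, and the sequences printed for these 2 genes match at 87 of the 90 bases they share when aligned on the motifs (96.7%). In the same alignment the full promoters match at 184 of 270 bases (68.1%). A match of letters is a description and not a measured binding site.

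The 16 libraries held 28.3 to 48.2 M estimated counts (M, mega). Hepatocyte markers were abundant in every liver, as the tissue label requires: Alb, which encodes albumin, had 59500 ± 13400 CPM in emodin livers and 84500 ± 9770 CPM in vehicle livers. CPM is the estimated count per M of the library total after TMM scaling, a library-size correction, and values are given as mean ± SD over the 8 livers of a group unless they are single livers. Fold changes are emodin over vehicle from edgeR's quasi-likelihood test across all 14308 entries, with their standard error (SE) and Benjamini-Hochberg adjusted p, and a gene was called at an adjusted p under 0.05. In bulk tissue, fewer cells of a type and less RNA per cell cannot be told apart.

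Emodin livers had more mRNA of Gbp3 and Irgm1, the 2 of the 10 members that were called. Of all tested entries, 7.70% were called higher (13.2% in either direction), and no test sets the 2 of 10 against that share. No member was called lower, against 5.47% of all entries, and at an unadjusted p under 0.05 edgeR counted 4 members higher and 0 lower. The share of all entries at that unadjusted p is not given here. Such counts, for the members and for later lists, therefore lack a background and only describe. DESeq2 called 2 members higher, and limma-trend 0. The members' log2 fold changes ran from 0.42 for Iigp1 to 2.34 for Gbp3, all above 0, and 4 of 10 (Gbp3, Gbp7, Igtp and Irgm1) were at least 1, against 2.75% of all tested entries. They had a median of 0.91 against 0.012 over all tested entries. The medians of the 5 GBP and 5 IRG members were 0.92 and 0.81. The group differences rested on some of the emodin livers: 4, 5 and 8 lay above every vehicle liver for 10 of 10 members, a pattern picked out after the values were seen that 10.8% of all tested entries showed, and emodin livers 2, 4, 5 and 8 together did so for 7 of 10, against 8.24% of all entries.

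**Figure D1:**
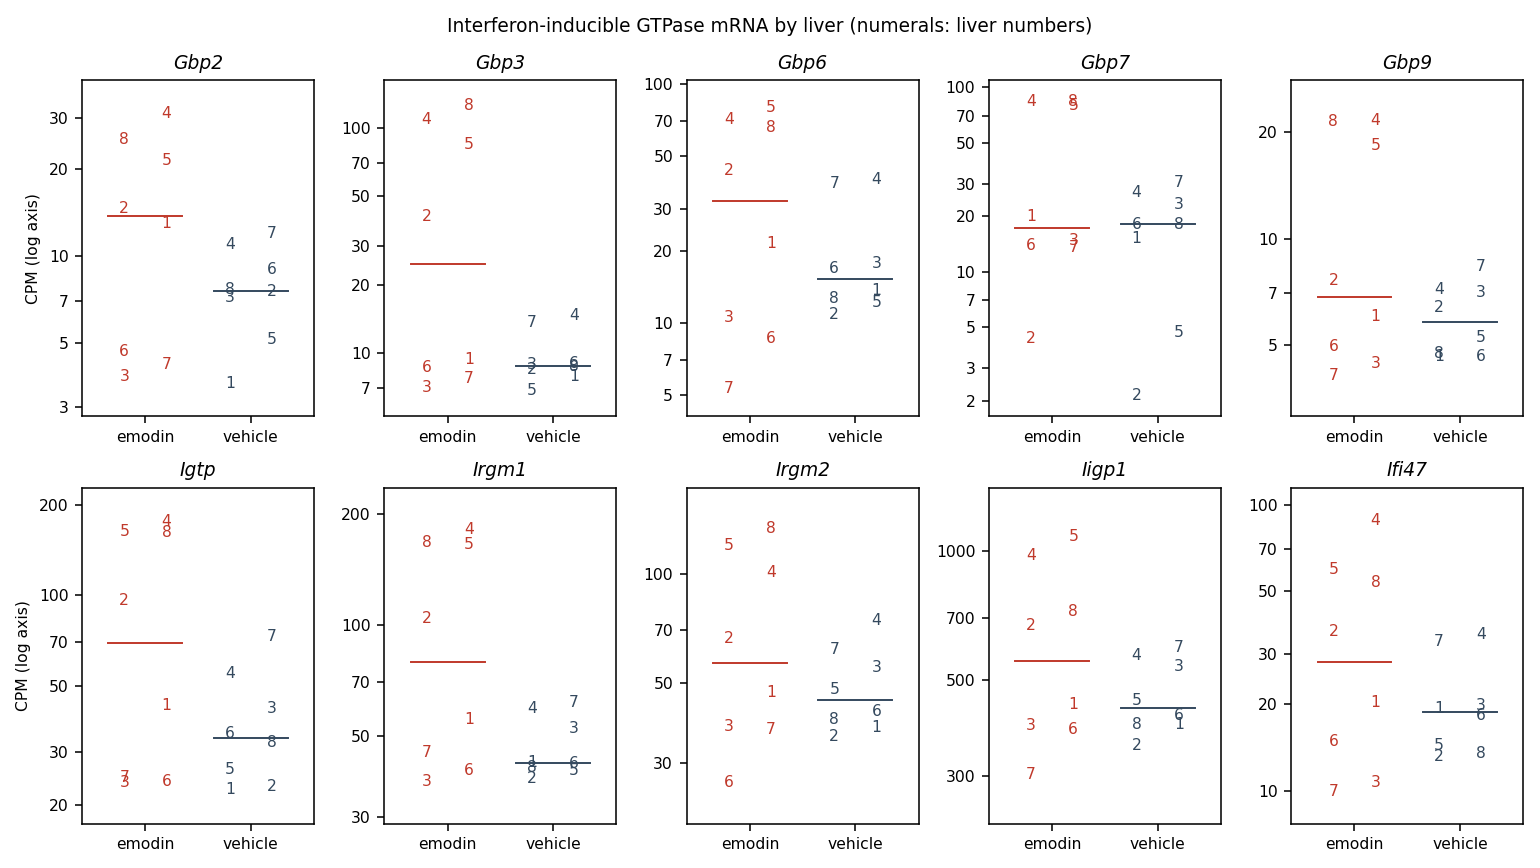
Level of each member in CPM on a log axis in emodin livers (red) and vehicle livers (grey), with the liver's number as the plotted symbol and a line at the group median. Numerals 4, 5 and 8 stand above every vehicle liver in each emodin column, and 3, 6 and 7 lie within or below the vehicle range.

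Among the GBPs, Gbp3 had the largest difference. In emodin livers 1 to 8 it had 9.35, 40.5, 7.01, 110, 84.7, 8.60, 7.68 and 126 CPM, against 7.83, 8.44, 8.83, 14.6, 6.79, 9.01, 13.6 and 8.72 CPM in vehicle livers 1 to 8. Emodin livers 2, 4, 5 and 8 were above every vehicle liver and emodin livers 1, 3, 6 and 7 lay inside the vehicle range. The means were 49.2 ± 50.2 CPM with emodin and 9.72 ± 2.79 CPM with vehicle, which gave 2.34 ± 0.64 as the log2 fold change (edgeR adjusted p = 0.0284, 5.06-fold). The call was lost without emodin liver 4 (log2 fold change 2.06, adjusted p = 0.0602), emodin liver 8 (1.98, 0.0539), vehicle liver 1 (2.31, 0.0506), vehicle liver 3 (2.33, 0.0505) or vehicle liver 5 (2.28, 0.0532). It was also lost with limma-trend (1.46, adjusted p = 0.115), which averages on the log scale.

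Gbp2, a GBP that coats the vacuole of Toxoplasma in mouse cells, had a lowest, median and highest level of 3.84, 13.8 and 31.2 CPM in emodin livers and 3.63, 7.60 and 12.0 CPM in vehicle livers. Emodin livers 1, 2, 4, 5 and 8 were above every vehicle liver, and emodin liver 1, at 13 CPM, was so for this member alone. The difference did not pass the test (log2 fold change 0.90 ± 0.43, edgeR adjusted p = 0.172).

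Gbp6 had a lowest, median and highest level of 5.28, 32.4 and 79.8 CPM in emodin livers and 10.8, 15.2 and 40.0 CPM in vehicle livers. It spread to both sides: emodin livers 2, 4, 5 and 8 were above every vehicle liver, and emodin livers 3, 6 and 7, at 10.5, 8.63 and 5.28 CPM, were below every one. Its log2 fold change of 0.92 ± 0.55 did not pass (edgeR adjusted p = 0.282). Gbp9 had a lowest, median and highest level of 4.08, 6.81 and 21.6 CPM with emodin and 4.63, 5.82 and 8.33 CPM with vehicle. Emodin livers 4, 5 and 8 stood above every vehicle liver, 3 and 7 below every one, and the log2 fold change was 0.88 ± 0.37 (edgeR adjusted p = 0.124).

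Gbp7, which in mouse phagocytes helps to assemble the NADPH oxidase on vacuoles, showed a pattern of its own. It had 19.9, 4.35, 14.7, 83.2, 79.2, 13.8, 13.5 and 83.7 CPM in emodin livers 1 to 8, against 15.1, 2.14, 23.2, 26.8, 4.69, 18.1, 30.3 and 17.9 CPM in vehicle livers 1 to 8. Emodin liver 2 and vehicle livers 2 and 5 had at most 4.69 CPM and the other 13 livers at least 13.5 CPM, a gap of 1.51 on the log2 CPM scale that was picked out after the values were seen. Only 4 of the 14308 tested entries had these 3 livers below the other 13, and the gap of the next, Cdca7l, was 0.27. Gbp3, the neighbour on one side, had 40.5 CPM in emodin liver 2, above every vehicle liver. It had 8.44 and 6.79 CPM in vehicle livers 2 and 5, the latter being its lowest vehicle liver. Gbp5, the neighbour on the other side, had 1.46 CPM in emodin liver 2, within the 1.27 to 4.84 CPM of emodin livers. In vehicle livers 2 and 5 Gbp5 had 2.43 and 1.23 CPM, where vehicle livers ran from 1.23 to 4.25 CPM. The group medians of Gbp7 were 17.3 CPM with emodin and 18.0 CPM with vehicle, and its log2 fold change of 1.18 ± 0.64 did not pass (edgeR adjusted p = 0.235).

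Among the regulator IRGs, Irgm1 was the called gene. It had 55.2, 104, 37.5, 182, 166, 40.3, 45.1 and 168 CPM in emodin livers 1 to 8, against 42.4, 38.3, 52.2, 59.3, 40.2, 41.9, 61.5 and 40.9 CPM in vehicle livers 1 to 8. Emodin livers 2, 4, 5 and 8 were above every vehicle liver, emodin liver 3 was below every one, and emodin livers 1, 6 and 7 lay inside the vehicle range. The means were 99.7 ± 63.5 CPM with emodin and 47.1 ± 9.22 CPM with vehicle, which gave 1.08 ± 0.34 as the log2 fold change (edgeR adjusted p = 0.0476, 2.12-fold). Irgm1 had the narrowest vehicle range of the members, its highest vehicle liver being 1.61 times its lowest. The call sat close to the threshold: it was lost without any single vehicle liver (log2 fold changes 1.04 to 1.15, adjusted p between 0.0586 and 0.0819) and without emodin liver 2 (1.07, 0.0768), 4 (0.90, 0.105), 5 (0.94, 0.0883) or 8 (0.93, 0.0921). It was kept without emodin liver 1, 3, 6 or 7.

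Igtp, also called Irgm3, had 42.8, 95.9, 23.8, 176, 163, 24.0, 24.7 and 162 CPM in emodin livers 1 to 8, against 22.5, 23.1, 41.8, 54.8, 26.3, 34.5, 72.7 and 32.2 CPM in vehicle livers 1 to 8. Emodin livers 2, 4, 5 and 8 exceeded every vehicle liver and 3, 6 and 7 lay among the lowest vehicle livers. The log2 fold change of 1.21 ± 0.48 was larger than that of Irgm1 but did not pass (edgeR adjusted p = 0.109). The vehicle livers of Igtp spread 3.23-fold. Irgm2 had a lowest, median and highest level of 26.6, 56.7 and 133 CPM in emodin livers and 35.6, 44.8 and 74.3 CPM in vehicle livers. Emodin livers 4, 5 and 8 were above every vehicle liver and emodin liver 6 below every one, and its log2 fold change was 0.53 ± 0.32 (edgeR adjusted p = 0.274). Igtp and Irgm2 had log2 fold changes of 1.21 and 0.53, a difference that was not tested.

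Among the effector IRGs, Iigp1, which inserts into parasite vacuoles, had 439, 670, 393, 976, 1080, 385, 302 and 725 CPM in emodin livers 1 to 8, against 394, 352, 538, 572, 448, 414, 598 and 395 CPM in vehicle livers 1 to 8. Emodin livers 2, 4, 5 and 8 were above every vehicle liver and emodin liver 7 was below every one. Its log2 fold change was the smallest of the members, 0.42 ± 0.24 (edgeR adjusted p = 0.253). Ifi47 had a lowest, median and highest level of 9.96, 28.1 and 88.2 CPM with emodin and 13.2, 18.8 and 35.0 CPM with vehicle. Emodin livers 2, 4, 5 and 8 were above every vehicle liver and 3 and 7 below every one, and the log2 fold change was 0.81 ± 0.44 (edgeR adjusted p = 0.231).

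Per length, in CPM per kb of annotated exon, Iigp1 was the most abundant member in both groups, with 107 ± 49.9 in emodin livers and 79.7 ± 15.9 in vehicle livers. In vehicle livers Igtp (19 ± 8.66 CPM per kb) and Irgm2 (13.3 ± 3.69) came next, then Ifi47 (8.42 ± 3.47) and Irgm1 (8.10 ± 1.59), and between neighbours in this order, from Igtp to Irgm1, the SDs overlapped. Gbp6 (3.41 ± 2.00), Gbp2 (3.14 ± 1.11), Gbp7 (3.08 ± 1.77) and Gbp3 (2.98 ± 0.854) overlapped with each other, and Gbp9 (1.16 ± 0.272) was the lowest. In emodin livers Gbp3, at 15.1 ± 15.4 CPM per kb, averaged more than every other GBP member and stood between Irgm1 (17.2 ± 10.9) and Ifi47 (14.8 ± 11.4), with SDs that overlapped widely. Iigp1 made up 33.6% to 61.7% of the members' summed level per length in emodin livers and 50.9% to 62.2% in vehicle livers. Its lowest shares, 39.3%, 44.5% and 33.6%, were in emodin livers 4, 5 and 8. The 5 GBPs together made up 18.1%, 15.7% and 21.3% of the sum in these livers, 8.17% to 11.5% in the other 5 emodin livers and 6.49% to 11.3% in vehicle livers.

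Most members moved together from liver to liver, by inspection of the values. Gbp7 stood apart, at -1.59 in emodin liver 2 and -2.60 and -1.49 in vehicle livers 2 and 5 (log2 CPM minus the vehicle mean). The median over the members of log2 CPM minus the vehicle mean was 0.16, 0.92, -0.41, 2.02, 1.73, -0.32, -0.52 and 1.86 in emodin livers 1 to 8, and lay between -0.44 and 0.63 in vehicle livers. In emodin livers 4, 5 and 8 every member was above every vehicle liver. In emodin livers 3, 6 and 7, 9 of 10 members were below the vehicle mean, Gbp7 being the exception each time. Gbp3 was the member farthest above its vehicle mean in emodin livers 2, 4, 5 and 8, by 2.10, 3.54, 3.16 and 3.73 on the log2 scale. Among vehicle livers, 4 and 7 were the 2 highest for 10 of 10 members, a pattern that 4.42% of all tested entries showed and that was picked out after the values were seen.

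**Figure D2:**
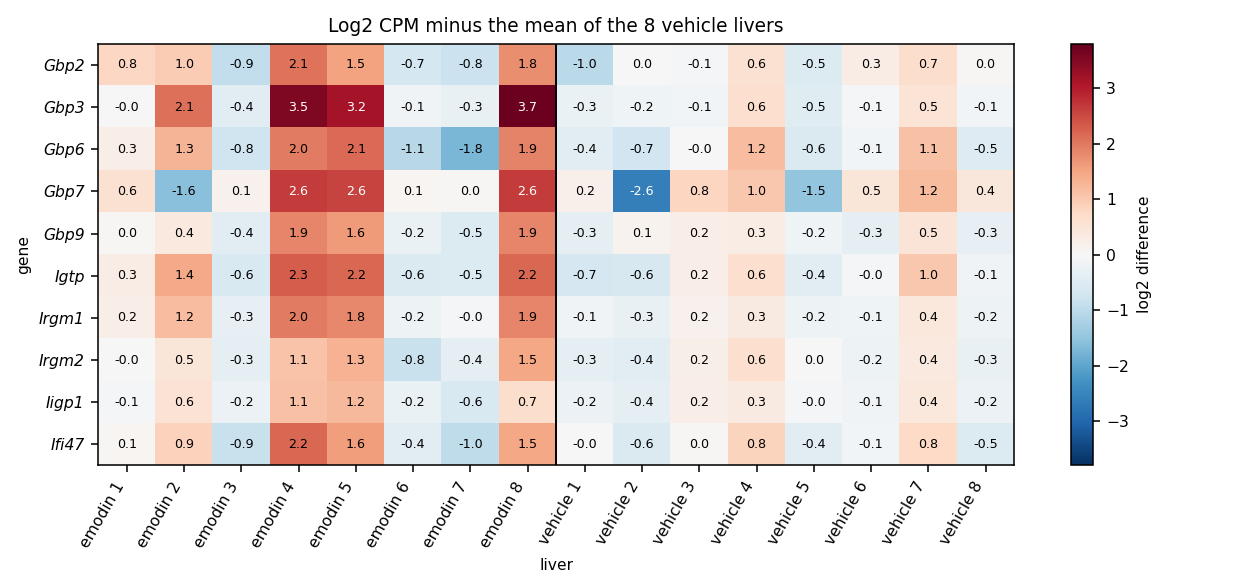
Log2 CPM of each member (rows) in each liver (columns) minus the mean of the 8 vehicle livers, with red above and blue below that mean. Emodin columns 4, 5 and 8 are red for all 10 members, emodin columns 3, 6 and 7 are blue or near 0, and vehicle columns 4 and 7 are the reddest vehicle columns.

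Of the other genes of both families, 1 was called, and it was lower with emodin. Of the 5 other GBP genes tested (Gbp2b, Gbp4, Gbp5, Gbp8 and Gbp10), edgeR called 0 in either direction, with 0 at an unadjusted p under 0.05 and 0 by DESeq2, and their median log2 fold change was -0.07. Gbp10, close in sequence to Gbp6, had 23.6 ± 17.3 CPM in emodin livers and 16.9 ± 12.4 CPM in vehicle livers (log2 fold change 0.48 ± 0.56, edgeR adjusted p = 0.597). Gbp2b had 2.76 ± 1.20 CPM in emodin livers and 3.96 ± 3.16 CPM in vehicle livers (-0.52 ± 0.42, edgeR adjusted p = 0.434). Emodin livers 4, 5 and 8 were all above every vehicle liver for 0 of these 5 genes, against 10.8% of all tested entries. Vehicle livers 4 and 7 were the 2 highest vehicle livers for 5 of 5, against 4.42% of all tested entries. Both patterns were picked out after the values were seen. Gbp11 was not analysed here. In this list and each later list of interferon-related genes or partner proteins, limma-trend called 0 genes in a direction where edgeR called 0.

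Of 10 other IRG genes tested, 0 were called higher (1 at an unadjusted p under 0.05, 0 by DESeq2) and 1 lower, with a median log2 fold change of 0.17. The called gene was Irgq, an IRG relative not known to depend on interferon, with 9.24 ± 1.23 CPM in emodin livers and 11.9 ± 1.53 CPM in vehicle livers (-0.37 ± 0.10, edgeR adjusted p = 0.0222). This call was lost with total counts as the scaling (-0.33, adjusted p = 0.0867). The effector Tgtp1, named after its values were seen, had 54.5 CPM on average in emodin livers and 19.4 CPM in vehicle livers (1.49 ± 0.68, edgeR adjusted p = 0.156), and its near-identical copy Tgtp2 makes the split of their reads uncertain. The giant GTPase genes Gvin1 (81.5 ± 80.2 CPM with emodin and 30.8 ± 15.8 CPM with vehicle) and Gvin2 (70.5 ± 73.8 CPM with emodin and 19.4 ± 15.8 CPM with vehicle) had log2 fold changes of 1.40 ± 0.60 and 1.86 ± 0.70. Neither passed in edgeR (adjusted p = 0.13 and 0.0912), both had an unadjusted p under 0.05, and DESeq2 called 1 of the 2. Without emodin liver 7 or without vehicle liver 4, edgeR called 1 of the 2. The dynamin-like genes Mx1 and Mx2 were not analysed here.

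Interferon mRNA was scarce. Ifng, which encodes interferon gamma, had 11 estimated counts over the 8 emodin livers (7, 2 and 2 in livers 2, 4 and 8) and 11 over the 8 vehicle livers (4, 2 and 5 in livers 1, 7 and 8), or 0.032 CPM on average with emodin and 0.0406 CPM with vehicle. The groups overlapped (exact two-sided permutation p = 0.824, 1 after adjustment over 22 genes below the filter). Ifnb1, which encodes interferon beta and was named after its values were seen, had 31, 60, 9, 2 and 207 estimated counts in emodin livers 2, 4, 5, 6 and 8 and 0 in emodin livers 1, 3 and 7 and in all vehicle livers. A sum of 0 allows up to 3 counts, or 0.0116 CPM over the vehicle group, for counting error only. Its exact two-sided permutation p of 0.0256 did not pass after adjustment over the 22 genes (0.282). Ifna4, also named after its values were seen, had 10 counts over emodin livers and 0 over vehicle livers, and Ifna2 2 and 0.

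No interferon receptor gene passed the test. Of 5 interferon receptor genes tested, 0 were called in edgeR in either direction (0 higher and 1 lower at an unadjusted p under 0.05, 0 by DESeq2), and their median log2 fold change was -0.06. Il10rb, a chain of the interferon lambda and interleukin-10 receptors, had 6.66 ± 0.992 CPM in emodin livers and 7.97 ± 1.18 CPM in vehicle livers (-0.26 ± 0.11, edgeR adjusted p = 0.122). Ifngr2, the signalling chain of the interferon gamma receptor, had 15.0 ± 2.61 CPM with emodin and 16.7 ± 2.2 CPM with vehicle (-0.16 ± 0.11, edgeR adjusted p = 0.329).

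Of 14 kinase, STAT, IRF and other regulator genes of the interferon response, 4 were called higher and 0 lower (6 and 1 at an unadjusted p under 0.05 in edgeR, 6 higher and 0 lower by DESeq2), with a median log2 fold change of 0.29. The 4 were Irf7, Nlrc5, Irf9 and Stat3, of which Nlrc5 is not a kinase, STAT or IRF. Irf7, a factor that amplifies type I interferon, had 170 ± 143 CPM in emodin livers and 27.6 ± 8.17 CPM in vehicle livers (2.62 ± 0.53, edgeR adjusted p = 0.00687). Irf1, which interferon gamma induces and which acts on GBP promoters, had 29.0 ± 9.79 CPM with emodin and 20.2 ± 4.24 CPM with vehicle (0.53 ± 0.18, edgeR adjusted p = 0.0647). It was called without emodin liver 1 (0.58, adjusted p = 0.0426), 6 (0.61, 0.0338) or 7 (0.58, 0.0466) and by DESeq2. Irf9, the DNA-binding part of the complex at ISREs, had 41.9 ± 15.7 CPM in emodin livers and 26.8 ± 2.53 CPM in vehicle livers (0.65 ± 0.19, edgeR adjusted p = 0.0311). Nlrc5, a regulator of class I antigen presentation, had 35.2 ± 9.33 CPM in emodin livers and 22.3 ± 3.53 CPM in vehicle livers (0.66 ± 0.15, edgeR adjusted p = 0.00952). The call of Irf9 was lost without emodin liver 2, 4, 5 or 8, or without vehicle liver 1, 2, 3, 5 or 7 (log2 fold changes 0.53 to 0.65, adjusted p between 0.0533 and 0.067). Stat3, which mainly carries interleukin-6 signals, had 121 ± 27.1 CPM in emodin livers and 79.9 ± 21.8 CPM in vehicle livers (0.60 ± 0.16, edgeR adjusted p = 0.0216).

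Of 7 inhibitors of interferon signalling tested, 3 were called higher and 0 lower (3 and 0 at an unadjusted p under 0.05 in edgeR and by DESeq2), with a median log2 fold change of 0.23. Usp18, which blocks the type I receptor, had 52.7 ± 45.3 CPM in emodin livers and 10.3 ± 2.45 CPM in vehicle livers (2.35 ± 0.53, edgeR adjusted p = 0.0115). Socs3, an inhibitor induced mainly by the interleukin-6 family, had 13.6 ± 6.53 CPM in emodin livers and 4.68 ± 1.24 CPM in vehicle livers (1.54 ± 0.29, edgeR adjusted p = 0.00386). Il18bp, which binds interleukin-18 and so restrains interferon gamma production, had 23.9 ± 16.7 CPM in emodin livers and 9.81 ± 4.07 CPM in vehicle livers (1.29 ± 0.39, edgeR adjusted p = 0.0406), a call that was lost without emodin liver 2, 4, 5 or 8 or any vehicle liver but 4 (log2 fold changes 1.02 to 1.31). Of 3 tested inducers of interferon gamma, edgeR called 0 (0 at an unadjusted p under 0.05, 0 by DESeq2). The list's other genes, Il12a, Il12b, Il27, Il23a and Tnfsf15, fell below the filter on low counts. Il23a, named after its values were seen, had 0.0866 CPM on average with emodin and 0.211 CPM with vehicle. Its exact two-sided permutation p of 0.0109 did not pass after adjustment over 22 genes (0.24). Il18 had 11.3 ± 1.62 CPM with emodin and 10.3 ± 1.62 CPM with vehicle (0.14 ± 0.11, edgeR adjusted p = 0.419), and Il15 had 1.16 ± 0.257 CPM with emodin and 1.40 ± 0.828 CPM with vehicle (-0.28 ± 0.27, edgeR adjusted p = 0.52).

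Targets that respond mainly to interferon gamma and targets that respond mainly to type I interferon were listed apart. Of 14 gamma-preferring targets tested, 5 were called higher and 0 lower (10 and 0 at an unadjusted p under 0.05 in edgeR, 7 higher and 0 lower by DESeq2), with a median log2 fold change of 0.50. Cxcl10, a T cell chemokine that type I interferon also induces, had 67.7 ± 89.9 CPM in emodin livers and 4.25 ± 1.48 CPM in vehicle livers (3.99 ± 1.00, edgeR adjusted p = 0.0186). With limma-trend, which averages logs, Cxcl10 was not called (2.10, adjusted p = 0.152). Icam1, an adhesion molecule, had 19.8 ± 14.6 CPM in emodin livers and 8.27 ± 1.14 CPM in vehicle livers (1.26 ± 0.34, edgeR adjusted p = 0.0241), a call lost without emodin liver 2 (1.12, adjusted p = 0.05). The immunoproteasome subunit genes Psmb8 and Psmb10 had log2 fold changes of 0.88 ± 0.24 and 0.65 ± 0.17 (edgeR adjusted p = 0.0252 and 0.023). Psme1, a proteasome activator gene named after its values were seen, was the fifth called (0.41 ± 0.12, edgeR adjusted p = 0.035). Cxcl9, the chemokine of this list most tied to interferon gamma and named after its values were seen, did not pass, at -0.31 ± 0.34 on the log2 scale (edgeR adjusted p = 0.58). The list's count was 3 without emodin liver 2 and 9 without emodin liver 7.

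Of 18 type I-preferring targets, 13 were called higher and 0 lower (17 and 0 at an unadjusted p under 0.05 in edgeR, 17 higher and 0 lower by DESeq2), with a median log2 fold change of 2.55. The count was lower with other tools, at 9 with limma-trend, 5 with the rank-sum test and 0 with limma voom and quality weights. Isg15, a ubiquitin-like modifier, had 83.2 ± 99.2 CPM in emodin livers and 4.8 ± 1.2 CPM in vehicle livers (4.11 ± 0.89, edgeR adjusted p = 0.00957), and 1.47 with quality weights (adjusted p = 0.218). The antiviral genes Rsad2, Ifit1 and Ifi44 had log2 fold changes of 4.05 ± 0.87, 4.01 ± 0.80 and 3.8 ± 0.85 (edgeR adjusted p = 0.00911, 0.00674 and 0.0115). Emodin livers 4, 5 and 8 were above every vehicle liver for 17 of these 18 genes, as for 11 of the 14 gamma-preferring targets and 10 of 10 members. Vehicle livers 4 and 7 were the 2 highest vehicle livers for 1 of the 18 type I-preferring targets and for 10 of the 14 gamma-preferring ones. Of all tested entries, 10.8% showed the pattern of emodin livers 4, 5 and 8, and 4.42% that of vehicle livers 4 and 7. Both patterns were picked out after the values were seen. The difference between the lists was not tested.

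**Figure D3:**
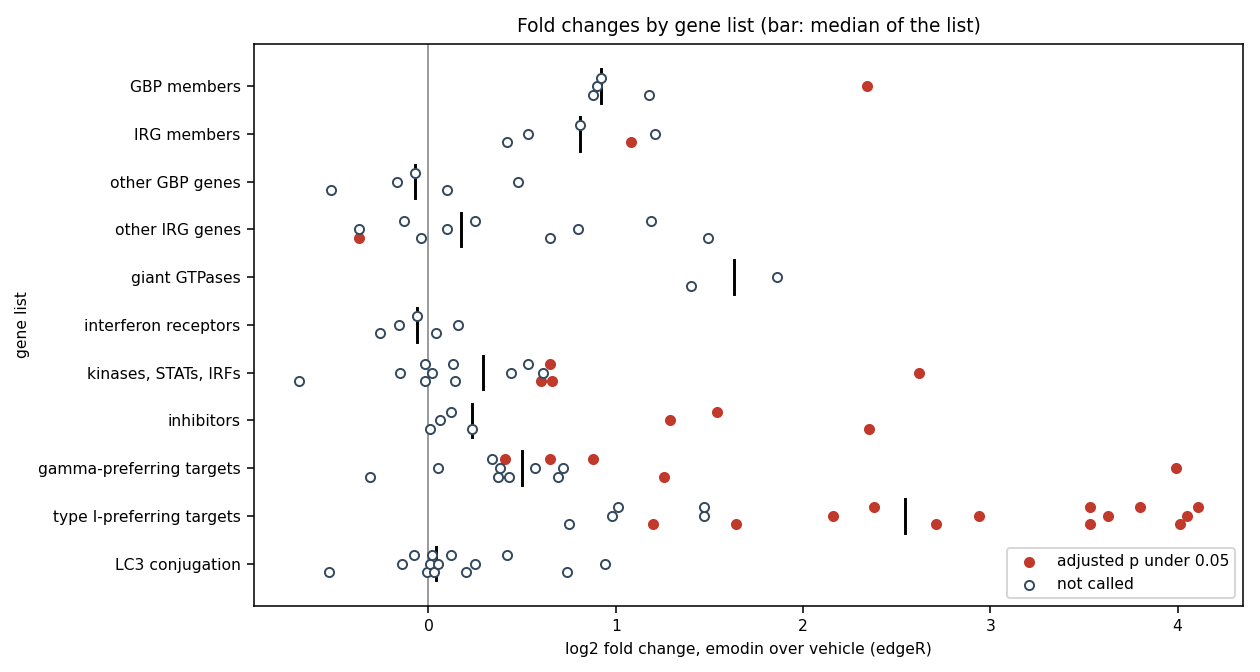
Log2 fold change, emodin over vehicle, of each tested gene by list, with filled points called at an adjusted p under 0.05, open points not called and a bar at the list's median. The 10 members lie between 0.42 and 2.34, the other GBP genes around -0.07, and the type I-preferring targets around 2.55.

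None of the tested genes for proteins with which GBPs and IRGs work passed in edgeR. Of 14 genes for LC3 conjugation and ubiquitin adaptors, which some GBPs and IRGs need to find vacuoles, edgeR called 0 (4 higher and 2 lower at an unadjusted p under 0.05), and DESeq2 called 1 higher and 1 lower. Leaving out emodin liver 1, 3, 6, 7 or 8 or vehicle liver 4 or 7 gave 1 called higher. Sqstm1, the adaptor p62, had 508 ± 265 CPM in emodin livers and 304 ± 12.6 CPM in vehicle livers (0.74 ± 0.25, edgeR adjusted p = 0.0597). Gabarapl1, an LC3 relative, had 307 ± 105 CPM in emodin livers and 443 ± 27.3 CPM in vehicle livers (-0.53 ± 0.19, edgeR adjusted p = 0.0739). Of 8 inflammasome genes edgeR and DESeq2 called 0 (1 higher and 0 lower at an unadjusted p under 0.05 in edgeR). Nlrp3 had 0.939 ± 0.449 CPM in emodin livers and 0.557 ± 0.217 CPM in vehicle livers (0.74 ± 0.30, edgeR adjusted p = 0.114), and Gsdmd, the pore former, had 26.8 ± 7.28 CPM with emodin and 21.8 ± 2.50 CPM with vehicle (0.30 ± 0.14, edgeR adjusted p = 0.171). Of 7 prenylation enzyme genes, which add the lipid anchor some GBPs carry, edgeR and DESeq2 called 0 (1 higher and 0 lower at an unadjusted p under 0.05 in edgeR). Among them Rce1 had 6.68 ± 0.804 CPM with emodin and 5.68 ± 0.753 CPM with vehicle (0.24 ± 0.10, edgeR adjusted p = 0.136), and Fntb did not pass either, at 0.25 ± 0.19 on the log2 scale (edgeR adjusted p = 0.402).

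The genes whose profile over the 16 livers was most like the members' median profile were sought among 12848 annotated genes, by the root mean square difference of log2 CPM minus the vehicle mean. Parp14 (0.277) was the closest, then Parp12 (0.278), Plac8 (0.297), Ube2l6 (0.305), Mpeg1 (0.31), Uba7 (0.314), Ifi209 (0.323), Ifih1 (0.325), Cd274 (0.331) and Nmi (0.335). On the same measure the members themselves lay between 0.185 for Irgm1 and 1.02 for Gbp7. Uba7 and Ube2l6 encode the E1 and E2 enzymes that attach ISG15, Parp12 and Parp14 are ADP-ribosyltransferases, Ifih1 encodes the RNA sensor MDA5, Cd274 encodes PD-L1, and Mpeg1 encodes the macrophage pore protein perforin-2.

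Markers of other liver cells were read in the same livers. The 5 monocyte markers, of which 0 were called in edgeR (2 higher and 0 lower at an unadjusted p under 0.05) and 1, higher, by DESeq2, summed to 7.80 to 43.0 CPM in emodin livers and 7.01 to 13.9 CPM in vehicle livers, and emodin livers 2, 4, 5 and 8 had 15.4, 43.0, 27.4 and 26.9 CPM. Plac8, also among the 10 most alike genes, made up most of these sums. It had 12.9 ± 9.42 CPM with emodin and 6.05 ± 1.15 CPM with vehicle (1.09 ± 0.37, edgeR adjusted p = 0.0645). Its adjusted p was between 0.0361 and 0.0422 without emodin liver 1, 3, 6 or 7. Ly6c2 had 1.79 ± 1.91 CPM with emodin and 0.819 ± 0.35 CPM with vehicle (1.12 ± 0.50, edgeR adjusted p = 0.143). Ccr2, named after its values were seen, had 1.98 ± 1.03 CPM with emodin and 1.83 ± 0.585 CPM with vehicle (0.12 ± 0.28, edgeR adjusted p = 0.817). Only emodin liver 4, at 4.36 CPM, had more Ccr2 than every vehicle liver. Itgam and Cx3cr1, also named after their values were seen, had log2 fold changes of 0.75 ± 0.43 and 0.7 ± 0.35 (edgeR adjusted p = 0.251 and 0.19). The 10 Kupffer cell and macrophage markers (0 called in edgeR, 1 higher and 0 lower at an unadjusted p under 0.05, 1 higher by DESeq2) summed to 250 to 668 CPM in emodin livers and 170 to 770 CPM in vehicle livers, the highest being vehicle liver 4. The part of these cells in the members' levels was not tested.

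T and NK cell markers, from cells that make interferon gamma, summed to 4.95 to 12.9 CPM in emodin livers and 7.32 to 26.9 CPM in vehicle livers, the highest being vehicle liver 7. Of 10 tested, 0 were called higher and 1 lower (0 and 5 at an unadjusted p under 0.05 in edgeR, 0 and 2 by DESeq2). The called gene was Lck, a T cell kinase, with 0.890 ± 0.391 CPM in emodin livers and 1.78 ± 0.549 CPM in vehicle livers (-0.99 ± 0.27, edgeR adjusted p = 0.023). Neutrophil markers summed to 0.400 to 4.50 CPM with emodin and 0.0621 to 2.78 CPM with vehicle. Sinusoidal endothelial cell markers summed to 111 to 167 CPM with emodin and 117 to 176 CPM with vehicle. Of the 6, 1 was called lower by edgeR, DESeq2 and limma-trend alike, Kdr, a receptor for endothelial growth factor, with 24.0 ± 3.58 CPM in emodin livers and 32.7 ± 4.76 CPM in vehicle livers (-0.45 ± 0.10, edgeR adjusted p = 0.00918). Of 5 stellate cell markers edgeR called 0 (0 higher and 1 lower at an unadjusted p under 0.05), and DESeq2 and limma-trend each called 1 lower. Stellate cell markers summed to 134 to 248 CPM with emodin and 160 to 354 CPM with vehicle. No measured marker of these lists was at 0 in every liver. Hepatocyte markers summed to 59100 to 109000 CPM in emodin livers and 101000 to 132000 CPM in vehicle livers, and emodin liver 4 had the lowest sum. Alb, with 59500 and 84500 CPM on average, made up most of these sums. Of the 8 hepatocyte markers edgeR called 0 higher and 1, Alb, lower (1 and 1 at an unadjusted p under 0.05). DESeq2 called 1 higher and 1 lower, limma-trend 0, and the median log2 fold change of the 8 was -0.08. Alb was lower with emodin (-0.50 ± 0.15, edgeR adjusted p = 0.0309), a call lost without emodin liver 2 or 5 or vehicle liver 3, 4, 5 or 8 (log2 fold changes -0.49 to -0.46). It was also lost with limma-trend (-0.53, adjusted p = 0.317) and with no filter on low counts (adjusted p = 0.0726).

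The size of the members' differences varied with the method. With limma-trend, which gives no weights per liver, the log2 fold change of Gbp3 was 1.46 and that of Irgm1 0.82. The part of the weights alone was not tested. With limma voom and quality weights per liver, which gave emodin livers 8, 4 and 5 the lowest weights (0.276, 0.376 and 0.455), the log2 fold change of Gbp3 was 0.61 and that of Irgm1 0.35, 0 members were called, and those of Gbp6, Irgm2 and Ifi47 were just below 0. Leaving out any single liver kept the log2 fold change of all 10 members above 0.

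**Figure D4:**
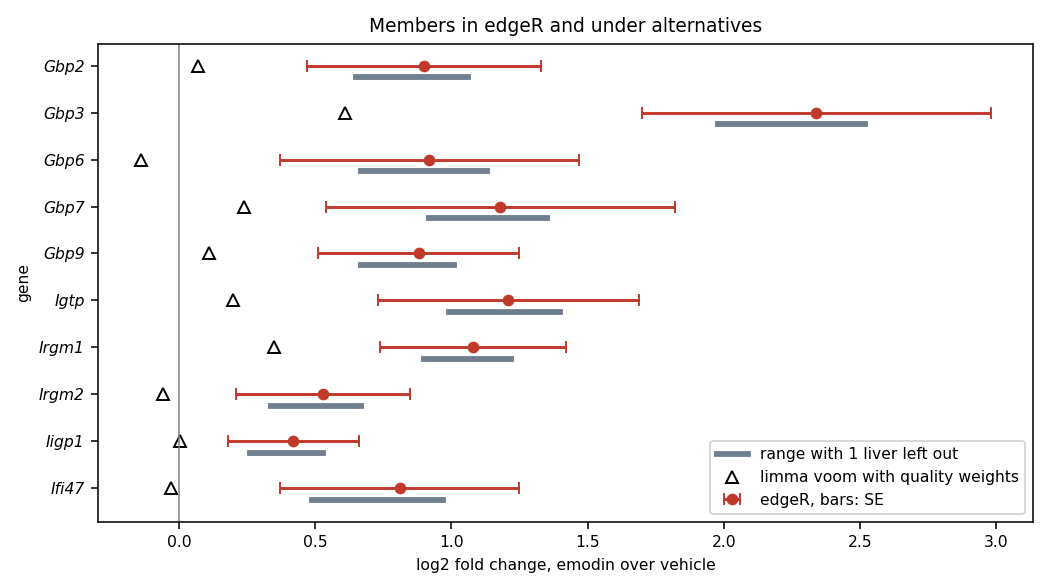
Log2 fold change of each member, emodin over vehicle, from edgeR with its SE (red), its range when each liver in turn was left out (grey bars) and its value from limma voom with quality weights (open triangles). Each triangle lies left of the grey bar of its gene, and those of Gbp6, Irgm2 and Ifi47 lie at -0.14, -0.06 and -0.03.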

How the data were processed

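RNA of 16 mouse livers was sequenced, 8 per group by the treatment label. Values are estimated counts as deposited by the authors, a unit read from the values themselves: 0 values were not whole, totals were 28.3 to 48.2 M, and the value 2 (10994 times over all livers) was commoner than 1 (2899 times). The unit and the program that made them are not stated, although the name of the table speaks of FPKM. The submitters' processing notes name HISAT2, HTSeq 0.6.1, Cufflinks 2.2.1, cutadapt 1.9.1, SAMtools 0.1.19 and mm10; roles, annotation, filters and handling of shared reads are not given in the sources used here.

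The test of every entry used edgeR 4.0.16 under R 4.3.3 (filterByExpr, TMM, robust quasi-likelihood F test, group only, counts rounded, which changed nothing), with Benjamini-Hochberg adjustment over 14308 entries. Each SE is |log2 fold change| over the root of its F. Log2 CPM used a prior count of 2. Genes below the filter were tested by exact permutation of CPM over 12870 assignments. The calculation was tested on simulated data. Levels per length use merged exons of GENCODE M21. Results of some genes are not reported here; a gene list and the search for like profiles were run without such a gene. Gvin2 was matched by its Ensembl ID. The members and gene lists were chosen with earlier results of these data known. The genes named are the members, up to 4 called genes per list (or the 2 with the smallest p), Ifng, Irf1 and the 10 most alike entries; others are said to be named after their values were seen. Alternatives were other scalings, filters, DESeq2 1.42.0, limma 3.58.1, a rank-sum test, a block for the number in the titles, and leaving out each liver. Of the table's numeric columns, 0 were left aside. Intervals and limits on counts cover counting error only, as the data carry no molecular identifiers.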

Additional observations from a re-analysis of the deposited data

Results flagged for a closer look

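Each of 62 named genes was checked in both groups for a liver standing apart from the other 7 (Dixon's criterion at the 95% level, 124 checks), where chance gives about 1 in 20. None of the 10 members had such a liver, and 5 values of other genes did. Il18 in emodin liver 8 had 8.0 CPM, against 10.4 to 13.1 CPM in the other emodin livers. Irf7 in vehicle liver 4 had 46.2 CPM, against 20.6 to 29.0 CPM in the other vehicle livers. Usp18 in vehicle liver 4 had 15.9 CPM, against 7.67 to 10.7 CPM. Icam1 in vehicle liver 4 had 11 CPM, against 7.52 to 8.56 CPM. Il15 in vehicle liver 2 had 3.38 CPM, against 0.836 to 1.48 CPM. Vehicle liver 4 was also among the 2 highest vehicle livers for every member.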

How the results depend on the processing

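Of 260 member values under 26 alternatives, 230 kept their direction and side of the threshold, 27 were no longer called and 3 reversed. Only Gbp3 and Irgm1 had a call to lose. Gbp3 lost it in 9 of the 26 alternatives and Irgm1 in 18 of the 26. The reversals came with limma voom and quality weights: Gbp6 -0.14, Irgm2 -0.06 and Ifi47 -0.03 (log2). Gbp10 also reversed there, at -0.21, and Il15 without vehicle liver 2, at 0.05 (range with a liver left out -0.36 to 0.05); the cause was not tested. The count of members called higher was 2 in edgeR, 0 with limma-trend, the rank-sum test, the replicate block and quality weights, 1 without a filter on low counts and 1 with total counts as scaling, and 0 to 2 with a liver left out. Over all entries, 1102 were called higher and 782 lower, 628 higher with the replicate block, and 709 to 1333 higher and 521 to 903 lower with a liver left out (709 without emodin liver 4, 521 without emodin liver 2). The type I-preferring targets had 13 called higher, 5 by the rank-sum test, and 0 with the replicate block or quality weights. The gamma-preferring targets had 5, 1 by the rank-sum test, 3 with the replicate block and 0 with quality weights. With the replicate block, Irgq (adjusted p = 0.0762), Alb (0.0657) and Isg15 (0.114) were not called. The labels do not say that the numbers in the titles pair the livers. Same-numbered livers had correlations of -0.149 to 0.245 in their deviations, and only emodin livers 1 and 4 matched the vehicle liver of their own number best. Such correlations cannot exclude a pairing. The median log2 fold change over all entries was 0.012 with TMM scaling and 0.005 to 0.042 with the other scalings. The lowest count of a member in any liver was 74, while interferon genes had many livers at 0 counts; the effect of depth was not tested.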
